A study of Homo sapiens with 12 samples.

Results

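The accessible chromatin around 9 genes of the AP-1 family was followed in U2OS, a human osteosarcoma cell line: FOS, FOSB, FOSL1, FOSL2, JUN, JUNB, JUND, ATF3 and BATF3. They are 9 of the 19974 protein-coding genes on the autosomes and X in the RefSeq gene table. For each gene the window was the gene body with 50 kb on each side (GRCh38), and every peak touching the window was taken. ATAC-seq, in which the transposase Tn5 cuts and tags open DNA, had been done on 12 samples in 6 groups of 2. The FOXA2 set held U2OS samples labelled wild type, samples with Tet-on, Flag-tagged full-length FOXA2 and samples with Tet-on FOXA2 lacking its CTD, with 1 peak list per library. The SOX2 set held samples labelled both wild type and SOX2 cell line, samples with Tet-on full-length SOX2 and samples with a Tet-on fusion of SOX2 to the FOXA2 CTD, with 1 list per group. Construct samples were labelled as given doxycycline at 500 ng/ml for 4 days. The wild-type samples carry the same protocol text and an empty treatment field, so whether they received doxycycline is not known. Whether the second wild type was parental U2OS or an uninduced SOX2 line is not known either, nor how many clones stand behind each line. The question set by the design is which regions open or close when these factors are expressed, and whether the FOXA2 CTD matters for it.

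AP-1 is a dimer of basic leucine zipper proteins. FOS-family proteins pair with JUN-family proteins, JUN-family proteins also pair among themselves, and ATF3 and BATF3 are related zipper proteins that join JUN partners. The dimers bind a short palindrome, the AP-1 site, or a CRE, which has an additional base in its centre. FOS, FOSB, JUNB and ATF3 are immediate early genes, transcribed within minutes of growth factor or stress signals, and AP-1 sites are among the most frequent motifs in open distal chromatin of mesenchymal cells. FOXA2 is a forkhead pioneer factor of endoderm, and SOX2 an HMG-box pioneer factor of pluripotent and neural cells.

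The bases before the start of 5 members are shown because peaks described here lie on or next to them, or, for ATF3, because none did. They are RefSeq sequences on GRCh38.p14, 250 bases each, written 5′ to 3′ in the direction of transcription. Capitals mark every match on either strand to the AP-1 site TGACTCA, the CRE TGACGTCA, a relaxed CRE TGACNTCA, the forkhead motif TGTTTAC and the SOX motifs ATTGTT and ACAATG. The relaxed form was added after the other motifs had been searched.
FOS chr14:75278578-75278827, plus strand: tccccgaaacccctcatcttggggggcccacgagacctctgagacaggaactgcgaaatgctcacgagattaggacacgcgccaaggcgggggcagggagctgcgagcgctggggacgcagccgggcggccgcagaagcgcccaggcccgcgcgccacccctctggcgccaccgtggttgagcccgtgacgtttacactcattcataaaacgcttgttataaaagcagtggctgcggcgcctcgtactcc
JUN chr1:58784048-58784297, minus strand: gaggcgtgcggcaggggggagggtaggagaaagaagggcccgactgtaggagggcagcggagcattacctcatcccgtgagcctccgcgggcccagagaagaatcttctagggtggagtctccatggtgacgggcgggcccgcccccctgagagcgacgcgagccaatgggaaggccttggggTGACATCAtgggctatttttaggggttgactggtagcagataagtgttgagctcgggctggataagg
JUNB chr19:12791236-12791485, plus strand: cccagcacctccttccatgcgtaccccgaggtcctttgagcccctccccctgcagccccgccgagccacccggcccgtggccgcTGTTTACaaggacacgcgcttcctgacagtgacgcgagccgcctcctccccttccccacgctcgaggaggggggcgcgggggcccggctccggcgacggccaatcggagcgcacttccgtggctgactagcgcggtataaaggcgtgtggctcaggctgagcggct
JUND chr19:18281623-18281872, minus strand: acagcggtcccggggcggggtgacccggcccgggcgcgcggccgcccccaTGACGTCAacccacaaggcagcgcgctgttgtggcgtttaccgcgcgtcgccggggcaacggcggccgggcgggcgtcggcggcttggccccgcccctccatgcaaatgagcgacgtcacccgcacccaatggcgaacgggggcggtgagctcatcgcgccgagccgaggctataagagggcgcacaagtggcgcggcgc
ATF3 chr1:212565157-212565406, plus strand: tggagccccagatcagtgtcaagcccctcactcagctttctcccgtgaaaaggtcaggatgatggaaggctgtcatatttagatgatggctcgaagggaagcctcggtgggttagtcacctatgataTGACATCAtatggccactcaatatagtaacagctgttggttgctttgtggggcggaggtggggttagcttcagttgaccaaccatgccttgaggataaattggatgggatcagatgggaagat
JUND held a full CRE, which starts 200 bases before its start. JUN and the first listed start of ATF3 held the same variant, TGACATCA, starting 67 and 123 bases before the start. The forkhead motif occurred in JUNB, 166 bases before its start, and FOS had no match. FOSL2, not printed, held the AP-1 site from base 5 after its start and ACAATG on the other strand from 4 bases before it. Among 22132 listed promoters of protein-coding genes, in windows of 300 bases, 4.01% held the AP-1 site, 2.26% the CRE, 6.83% the relaxed CRE (which includes the CRE), 2.85% the forkhead motif, 7.42% ATTGTT and 8.16% ACAATG. RefSeq promoter sequences were at hand for 7 of the 9 genes. FOSL1 and BATF3 were not in the table, and their start was taken at the gene end with the higher coordinate, since both lie on the minus strand.

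The lists differed in length and threshold, and no file gave counts, so read depth is unknown. The 6 lists of the FOXA2 set held 19862 to 161136 peaks, and their lowest −log10 p ranged from 2.01 to 5.43. The lists labelled wild type 2 and full-length 2 lacked mitochondrial peaks, while the other 4 had 2 each, and these are treated as 2 processing batches. Fold enrichment and −log10 p are the authors' own values for a peak in its own list, and a percentile is the rank of the peak's −log10 p within that list, with 100 the strongest. A given rank has a higher percentile in a longer list, so ranks counted from the strongest peak are added where percentiles of libraries are set side by side as groups. The 3 lists of the SOX2 set came from IDR, a procedure that matches the peaks of 2 inputs, taken here to be both samples of the group, and scores how well their ranks repeat. An entry counted as called at a global IDR of at most 0.05, which left 48142 to 75544 entries. With 2 libraries against 2 the smallest two-sided exact permutation p is 0.333, and the SOX2 set has 1 list a group, so no test was made. A peak within the FOXA2 gene was present in all 9 lists, labelled wild type included, so its presence does not check the labels. Its highest fold enrichment was 5.19 and 14.7 in wild type 1 and 2, 5.76 and 44.3 in full-length 1 and 2, and 6.94 and 7.07 in the CTD-deletion libraries. Full-length 2 stood apart, while full-length 1 and both CTD-deletion libraries lay between the libraries labelled wild type. Within each processing batch, every construct library stood above the library labelled wild type. Without mitochondrial peaks this was 44.3 against 14.7, and with them 5.76, 6.94 and 7.07 against 5.19. Of the bone and mesenchyme markers with a listed start (4 of 7), SPARC had a promoter peak in all 9 lists, RUNX2 in 7, SPP1 in 3 and ALPL in none. PTPRC, a blood marker, and ALB, a hepatocyte marker, had none in any list.

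In the FOXA2 set, AP-1 windows held regions that appeared with both FOXA2 constructs and none that disappeared. Merging the peaks of the 6 lists gave 148 regions in the windows, of 276021 in all. With full-length FOXA2, 22 of them (14.9%) were gained, meaning called in both construct libraries and in neither library labelled wild type. Over all regions 9.06% were gained, and 9.66% of those within 50 kb of a protein-coding gene. With the CTD-deleted form 17 (11.5%) were gained, against 8.72% over all regions and 8.98% near genes. The same 11 regions were gained with both constructs, against a background of 4.29%. No region in the windows was lost with either construct, where the background was 0.155% for full-length FOXA2 and 0.0576% for the CTD deletion. A total of 3 regions were gained with full-length FOXA2 and absent from both CTD-deletion lists (background 1.65%), and 2 showed the reverse (1.94%). At the listed start of any protein-coding gene, 11 of 41 window regions were gained with full-length FOXA2 (26.8%), and 5 with the CTD deletion (12.2%). Over all regions at such starts the numbers were 2157 and 1457 of 14366. Of the 148 regions, 11 (7.43%) were called in all 6 lists and 77 (52.0%) in 1 list only, against 3.15% and 69.0% over all regions.

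These gains moved with list length, and losses appeared where gains went. Reducing each list to its 19862 strongest peaks left 44 regions in the windows. Of these, 0 were gained with full-length FOXA2 and 1 (2.27%) with the CTD deletion, against 7.52% and 5.74% over all regions. Losses numbered 2 (4.55%) and 3 (6.82%), against 4.30% and 3.36%. At 1 common −log10 p of 5.43, 84 window regions remained. The gains there were 9 (10.7%) and 5 (5.95%), against 15.1% and 7.63% over all regions. Within the batch without mitochondrial peaks, full-length 2 had 50 regions (33.8%) absent from wild type 2, where the background was 13.6%. Within the other batch full-length 1 had 60 (40.5%) absent from wild type 1, against 51.4%. Leaving out full-length 1 gave 42 gains with full-length FOXA2 (28.4%, against 12.4% over all regions), and leaving out full-length 2 gave 54 (36.5%, against 48.3%). For the CTD deletion the count was 27 without wild type 1 (18.2%, against 10.1%), 59 without CTD deletion 1 (39.9%, against 42.4%) and 32 without CTD deletion 2 (21.6%, against 19.5%). The full-length-only count was 15 without full-length 1 (10.1%, against 3.48%), 29 without full-length 2 (19.6%, against 33.1%) and 10 without CTD deletion 2 (6.76%, against 4.18%). The CTD-deletion-only count was 31 without CTD deletion 1 (20.9%, against 27.7%) and 12 without CTD deletion 2 (8.11%, against 10.7%). It was 4 (2.70%) when full-length 1 or full-length 2 was left out, against 3.92% and 2.45%.

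With the SOX2 constructs, the share of window regions gained was below the background share, by more with the fusion. Among regions at gene starts alone, this held for the fusion and not for SOX2. The windows held 77 of 102872 regions, and 35 (45.5%) were called in all 3 lists, against 24.7% over all regions. With SOX2, 19 (24.7%) were gained and 15 (19.5%) lost, against 33.9% and 17.0% over all regions and 30.9% and 17.8% near genes. With the fusion, 10 (13.0%) were gained and 17 (22.1%) lost, against 43.7% and 17.1% over all regions and 39.4% and 18.3% near genes. Both constructs gained 8 (background 24.2%) and lost 11 (12.2%). A total of 11 were gained with SOX2 and not called with the fusion (9.72%), and 2 were gained with the fusion and not called with SOX2 (19.5%). A total of 24 regions were called in 1 list only, against 41.4%. At the listed start of any gene, 5 of 27 window regions were gained (18.5%) and 6 lost (22.2%) with SOX2. With the fusion 1 was gained (3.70%) and 6 lost (22.2%). Over all 10535 regions at such starts, the numbers were 1465 (13.9%) and 1075 (10.2%) with SOX2, and 1243 (11.8%) and 1627 (15.4%) with the fusion. Most of these calls rest on the IDR limit. Of the 15 regions lost with SOX2, 11 still had an entry in the SOX2 list, above the limit, and so did 16 of the 19 gained with SOX2 in the wild-type list. If a region must have no entry at all in the list that lacks it, 3 were gained and 4 lost with each construct, and none was specific to SOX2 or to the fusion. That is 3.90% gained and 5.19% lost, against 21.2% and 5.80% over all regions with SOX2 and 31.4% and 4.28% with the fusion. With each list reduced to 48142 entries, 10 were gained and 24 lost with SOX2, and 8 and 24 with the fusion. The losses were 35.3% of the 68 window regions that remained, against 27.4% with SOX2 and 31.1% with the fusion over all regions, and the gains were 14.7% and 11.8%, against 27.5% and 31.1%.

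**Figure D1:**
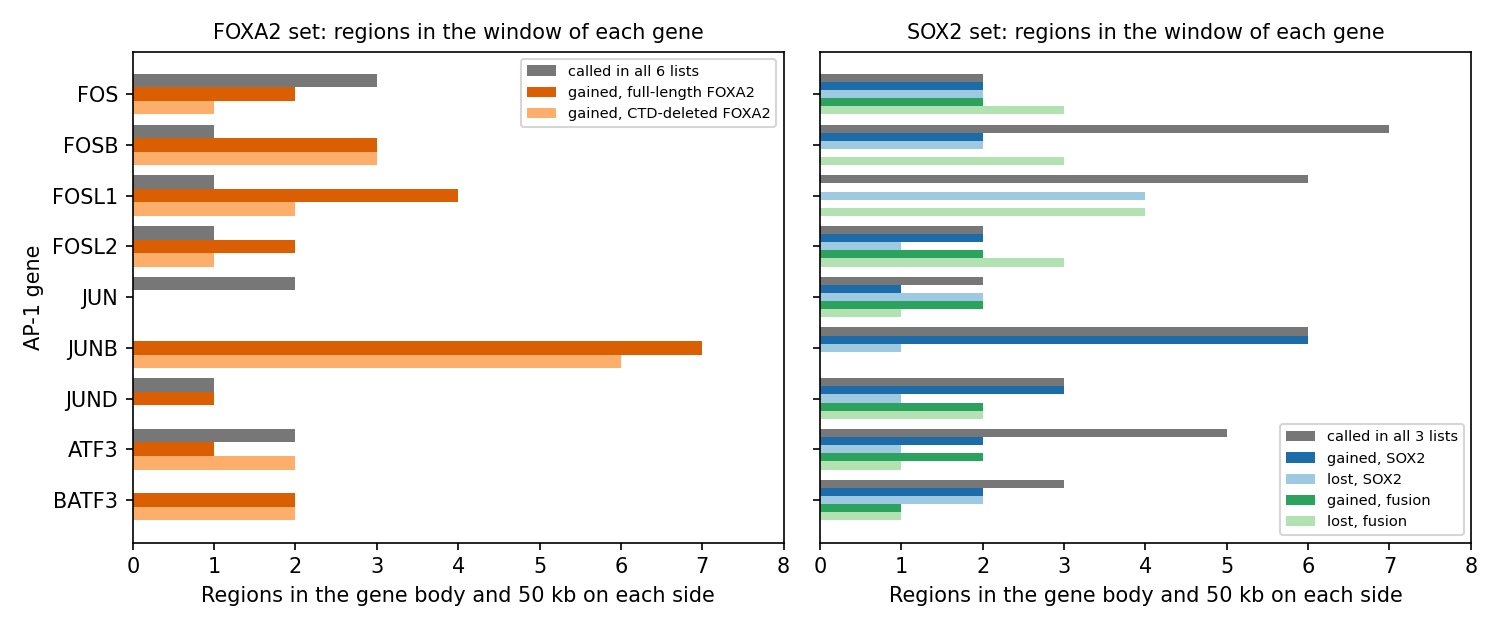
Number of regions per AP-1 gene window (horizontal axis, regions in the gene body and 50 kb on each side) called in every list of a set, gained or lost, in the FOXA2 set (left) and the SOX2 set (right). JUNB had the most gains with full-length FOXA2 (7) and with SOX2 (6), while JUN had none in the FOXA2 set; no losses are drawn on the left because there were none.

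Promoters of the family differed in how often they were called. A promoter was counted as called when a peak lay within 1000 bp of a listed start. Not every start of ATF3 is listed, so its absence from these counts holds for its listed starts only. FOS, FOSL2 and JUN were called in both libraries labelled wild type of the FOXA2 set, which makes 3 of 9, against 38.5% and 36.7% of the 15814 genes with a start in these lists. In full-length 1 and full-length 2 the same 8 genes were called (all but ATF3), against 66.2% and 58.1%. CTD deletion 1 had 6 (background 51.8%), lacking FOSB and JUND, and CTD deletion 2 had 8 (66.4%). Counts in the SOX2 set were 7 for wild type (57.6%), 6 for SOX2 (60.1%) and 5 for the fusion (55.1%). Only FOS and FOSL2 were called in all 9 lists, where 23.3% of all genes were, and with 500 bp on each side of the start in place of 1000 only 1 gene was. With JUN they made up the 3 called in all 6 lists of the FOXA2 set (28.6%), and with JUNB and JUND the 4 called in all 3 lists of the SOX2 set (45.2%). All 4 FOXA2 construct lists called 6 genes, FOS, FOSL1, FOSL2, JUN, JUNB and BATF3 (46.2%), and 6 were called in neither library labelled wild type of that set (54.5%). Gained promoters with full-length FOXA2 were FOSB, FOSL1, JUNB, JUND and BATF3 (background 12.4%), and with the CTD deletion FOSL1, JUNB and BATF3 (8.79%). No AP-1 promoter was lost with either construct, where 0.0126% and 0.0696% of all genes were. At equal numbers of peaks no AP-1 promoter was gained with either construct, and FOS and FOSL2 were lost with the CTD deletion (2.79% over all genes). At the common −log10 p, FOSB and BATF3 were gained with full-length FOXA2 (7.46%) and BATF3 with the CTD deletion (2.39%), while FOS was lost with the CTD deletion (0.967%).

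**Figure D2:**
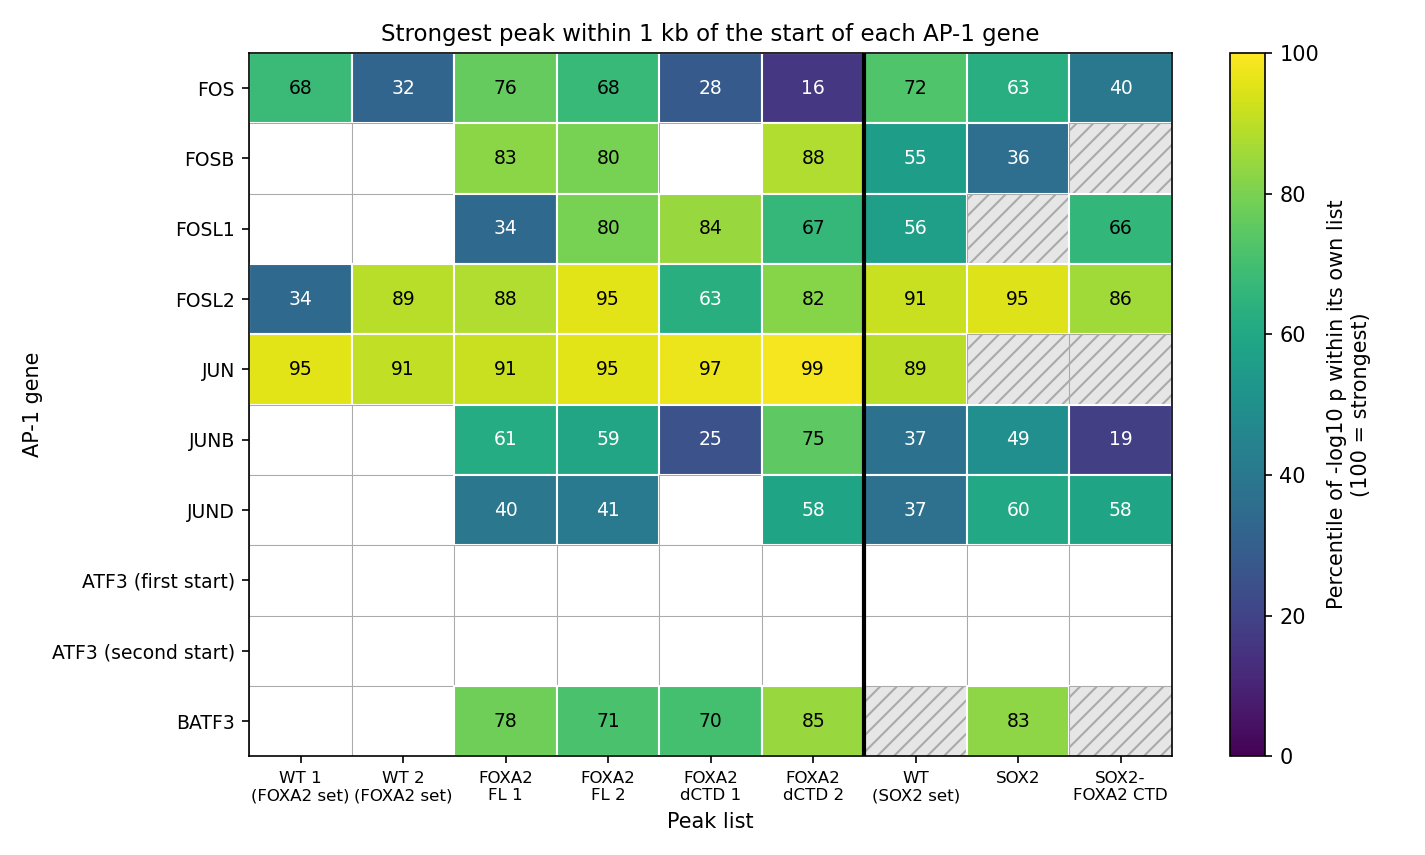
Each cell gives the within-list percentile (number and colour) of the strongest peak within 1 kb of a listed start, for the AP-1 genes (rows) in the 9 peak lists (columns); white cells had no peak, hatched cells an entry above the IDR limit of 0.05. JUN was at a percentile of 90.6 or more in all 6 lists of the FOXA2 set and above the IDR limit with both SOX2 constructs, and the 2 listed starts of ATF3 had no peak in any list.

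FOS, the founding member of the family, lies on chromosome 14 (75278828-75282230) with no other protein-coding gene in its window. Its start region, chr14:75278155-75279539, was called in all 6 lists of the FOXA2 set. The fold enrichment was 5.40 and 5.30 in wild type 1 and 2, 3.66 and 7.84 in full-length 1 and 2, and 3.01 and 2.62 in CTD deletion 1 and 2. The corresponding percentiles were 67.6, 32.1, 76.4, 67.5, 27.7 and 15.6. The ranks from the strongest peak were 6434 and 15745 in wild type, 37957 and 17699 in full-length and 56931 and 123874 in the CTD-deletion libraries. The CTD-deletion libraries were lowest on both scales, while full-length overlapped wild type in percentile and not in rank. These values are of the strongest peak within 1000 bp of the start. The lists held 1 and 1 (wild type), 3 and 2 (full-length) and 2 and 1 (CTD deletion) such peaks. Whether this division into peaks moved the ranks was not tested. The strongest element of the window lay elsewhere, 19.7 kb before the start (chr14:75258771-75259561). Its fold enrichment was 8.50, 8.73, 7.86, 17.4, 8.12 and 9.38 in the same order of lists, at percentiles of 97.3, 87.6, 99.5, 98.5, 98.7 and 99.6. Another region called in all 6 lists lay 15.5 kb after the start (chr14:75293848-75294742). Its percentile was 17.7 and 21.99 in the libraries labelled wild type and 97.2, 71.2, 91.6 and 97.4 in the construct libraries. Counted from the strongest peak, the ranks were 16345 and 18316 in wild type and 4497, 15725, 6650 and 3787 in the constructs, so full-length 2 lay close to wild type 1. A region 1.60 kb before the start (chr14:75276903-75277547) was gained with both constructs, with fold enrichments of 3.77, 6.14, 3.99 and 3.07 in the 4 construct libraries. Another, 20.9 kb after the start (chr14:75299423-75299974), was gained with full-length FOXA2 at 3.64 and 5.80, and was present in CTD deletion 2 at 4.13.

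With the SOX2 constructs both distal FOS elements were strong. The upstream element (chr14:75258673-75259796) counted as gained with both constructs, yet the wild type had an entry there. Its −log10 p was 46.6 in the SOX2 list and 30.5 in the fusion list (each the lower of the 2 inputs), at percentiles of 98.8 and 98.7. In wild type the inputs had 41.7 and 4.56, and the entry stood above the IDR limit at 0.354. The downstream element (chr14:75293689-75294598) was called in all 3 lists, at percentiles of 94.4, 95.4 and 96.8. At the start itself (chr14:75278328-75279683) the wild-type inputs had 3.45 and 17.3, above the limit at 0.350, while SOX2 passed at 14.4 and the fusion at 8.59. The wild-type call at the FOS promoter came instead from a peak 1.42 kb upstream (chr14:75276875-75277950), at 18.3 in wild type and 7.45 with SOX2; in the fusion it was above the limit, with inputs of 2.90 and 6.44. Regions 29.1 and 32.0 kb after the start were lost with both constructs, but were weak in wild type, at percentiles of 15.8 and 7.24.

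**Figure D3:**
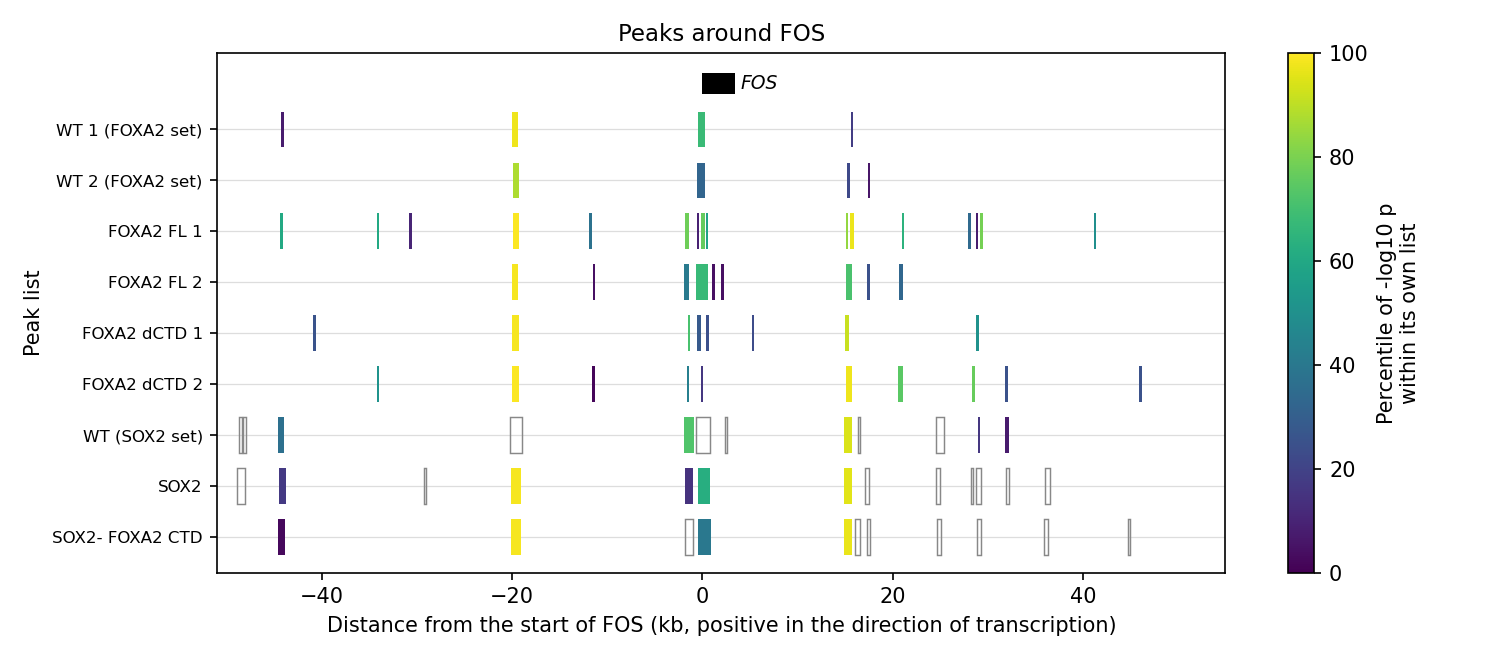
Peaks around FOS by distance from its start in kb (horizontal axis) in the 9 lists (rows); filled boxes are called peaks coloured by their within-list percentile, open boxes entries above the IDR limit, and the black box is the gene. The element 19.7 kb upstream is strong in the 6 FOXA2-set lists and with both SOX2 constructs. Only in wild type of the SOX2 set is it drawn as an open box, above the IDR limit. The element 15.5 kb downstream has its lowest percentiles in the 2 libraries labelled wild type of the FOXA2 set.

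FOSL2 is a FOS relative that lacks the strong activation domain of FOS. Its start region at chr2:28392256-28393123 was called in all 6 lists of the FOXA2 set, with fold enrichments of 4.14 and 9.04 (wild type), 3.83 and 13.6 (full-length) and 3.32 and 3.54 (CTD deletion). Percentiles ran from 33.9 in wild type 1 to 95.4 in full-length 2, so replicates of 1 group lay as far apart as the groups. The SOX2-set lists all held it, at percentiles of 91.4, 94.6 and 85.9. Around it, regions 59.9 kb after the start (chr2:28452499-28452990; 3.57 and 6.48) and 21.95 kb before it (chr2:28370790-28371019; 2.75 and 5.45) were gained with full-length FOXA2. The second was absent from both CTD-deletion lists. A region 53.2 kb after the start (chr2:28445835-28446363) was called in both CTD-deletion lists, at 3.11 and 3.43, and in no other list of the set. It was called in all 3 lists of the SOX2 set, at percentiles of 80.6, 1.70 and 48.7. Both SOX2 constructs gained chr2:28452436-28452799, with −log10 p of 9.05 and 8.52, and chr2:28361827-28362906, with 7.81 and 5.90, of which wild type held no entry for the second. Both lost chr2:28358988-28359785, a weak wild-type peak at 7.11. The fusion lost 2 more weak peaks, 2.23 kb before and 57.1 kb after the start, at percentiles of 20.4 and 11.8 in wild type.

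FOSB, an immediate early FOS relative on chromosome 19, showed no start peak in the libraries labelled wild type. Its start region (chr19:45467528-45468449) had fold enrichments of 4.17 and 9.20 in full-length 1 and 2 and 5.0 in CTD deletion 2, and was not called in CTD deletion 1. A second region inside the gene, 1.60 kb after the start (chr19:45469069-45470130), was called in all 6 lists, at 5.38, 4.68, 2.71, 7.16, 4.68 and 2.94. The SOX2 set split the same pair. The start region (chr19:45467490-45468646) passed only with SOX2, at 9.69, with inputs of 5.47 and 4.44 in wild type and 4.04 and 7.36 in the fusion. The inner region (chr19:45468892-45470074) passed only in wild type, at 13.5, with inputs of 7.99 and 5.23 with SOX2 and 8.68 and 5.05 in the fusion. FOSB therefore counts as having a called promoter in wild type and with SOX2 through different peaks, and as having lost it with the fusion. Distal gains with FOXA2 included chr19:45478194-45479392, 10.8 kb after the start and gained with both constructs (4.33, 6.48, 3.90 and 4.17). In VASP, a neighbouring gene for an actin-binding protein, chr19:45523683-45524177 was gained with the CTD deletion (3.90 and 3.51) and present in full-length 1. With SOX2 a region in ERCC1, a DNA repair gene, was gained at chr19:45439482-45440195, at a −log10 p of 7.87. Wild type held an entry above the IDR limit there, with inputs of 13.1 and 4.77, against 11.9 and 7.87 with SOX2.

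FOSL1, which encodes FRA-1, had a start region at chr11:65900036-65900851 that was gained with both FOXA2 constructs. Its fold enrichment was 2.78 and 9.20 in the full-length libraries and 4.84 and 3.96 in the CTD-deletion libraries, with no peak in either library labelled wild type. The overlapping region of the SOX2 set (chr11:65899055-65900789) was called in wild type at 13.7 and in the fusion at 11.9. With SOX2 it stood above the limit at an IDR of 0.340, with inputs of 22.4 and 4.83. The FOSL1 window is crowded, with 11 protein-coding genes touching it. Its 4 gains with full-length FOXA2 were at the starts of FOSL1, CFL1, MUS81 and the pair C11orf68 and DRAP1. The window also held 4 regions lost with SOX2 and 4 lost with the fusion, and none gained with either. The strongest of these in wild type lay 15.3 kb before the start (chr11:65915354-65916426), at a percentile of 81.3, against 5.92 with SOX2 and inputs of 5.72 and 10.3 in the fusion. A region 11.3 kb before the start (chr11:65911430-65912257), at 12.6 in wild type, had no entry with either construct. One 2.77 kb before the start (chr11:65903123-65903510), at 9.02, had no entry with SOX2. The CTD deletion alone gained chr11:65941404-65941843, at 3.28 and 2.34.

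JUN, the partner that most AP-1 dimers share, had the highest-ranked promoter of the family in the FOXA2 set, level with FOSL2 in full-length 2. Its region, chr1:58782857-58784888, includes the TGACATCA variant shown above. The fold enrichment was 6.91 and 9.36 in wild type 1 and 2, 4.31 and 13.6 in full-length 1 and 2, and 5.69 and 5.28 in CTD deletion 1 and 2. Percentiles were 95.4, 90.6, 91.5, 95.4, 96.9 and 98.7. The ranks from the strongest peak were 912 and 2213 in wild type, 13727 and 2506 in full-length and 2412 and 1902 in the CTD-deletion libraries. Both full-length ranks were thus lower in their lists than those of wild type, although their fold enrichments and percentiles overlapped with it. The JUN window had no gained and no lost region in the FOXA2 set, although full-length 1 held 8 peaks there and CTD deletion 2 held 8, against 4 in each library labelled wild type.

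Among the SOX2-set lists JUN was the only family member whose promoter call was lost with both constructs (background 2.54% of genes). Wild type passed at 28.0, with inputs of 37.0 and 28.0. With SOX2 the inputs were 5.28 and 34.7 at an IDR of 0.347, and with the fusion 26.3 and 5.54 at 0.300. In each construct 1 input thus kept a strong peak and the other had a weak one, and the loss is a failure to repeat between inputs rather than an absence in both. SOX2 lost 2 promoters, FOSL1 and JUN (background 5.65%), and gained BATF3 (8.08%). The fusion lost FOSB and JUN (9.31%) and gained none (6.73%). A distal region 19.6 kb after the JUN start (chr1:58764051-58764902) was gained with both constructs, at 14.5 with SOX2 and 19.05 with the fusion, with wild-type inputs of 4.75 and 7.04. No peak of the FOXA2 set overlapped it. The fusion alone gained the region next to it, chr1:58762547-58763446, at 8.89 and with no wild-type entry. A region 39.6 kb before the start (chr1:58823153-58824126) was lost with SOX2, at 15.8 in wild type, and stayed in the fusion at 5.89, a percentile of 5.31.

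**Figure D4:**
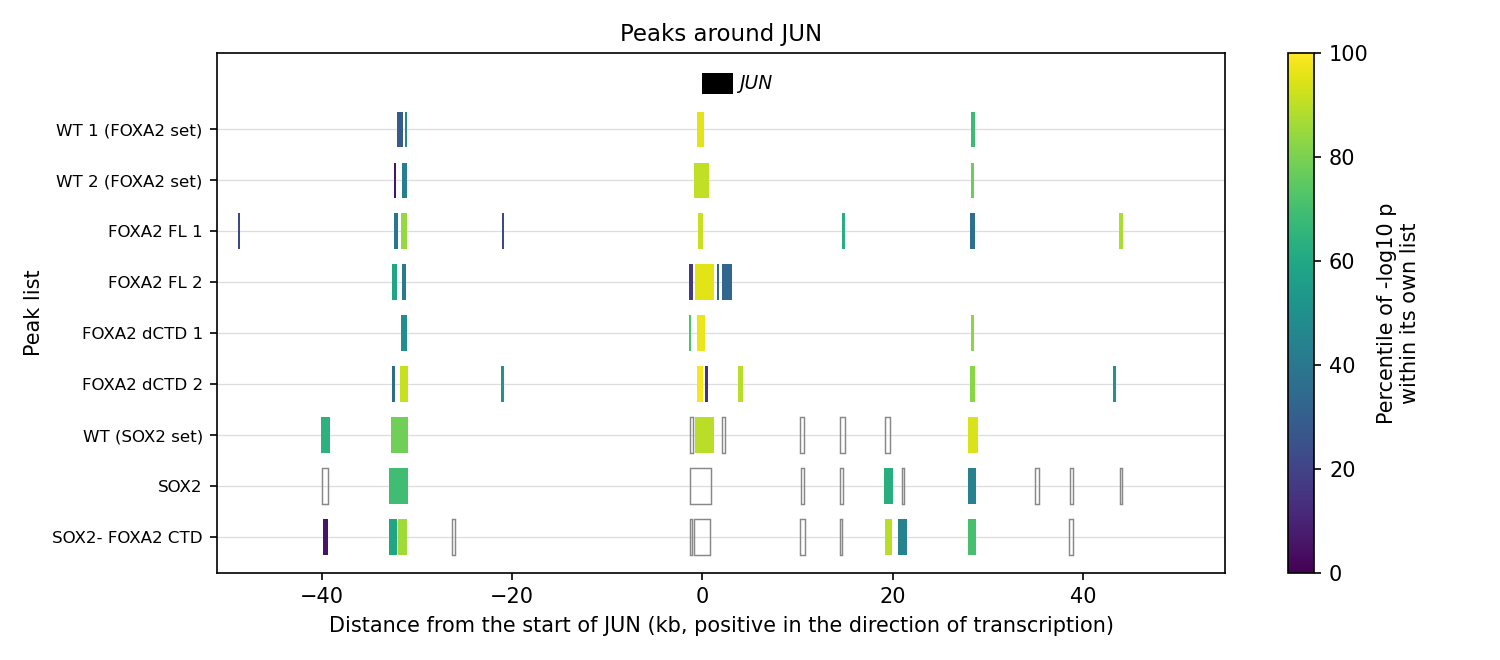
Peaks around JUN by distance from its start in kb (horizontal axis) in the 9 lists (rows), drawn as for FOS. The promoter peak is at a percentile of 90.6 or more in all 6 lists of the FOXA2 set and at 89.5 in wild type of the SOX2 set, and is an open box with both SOX2 constructs; the region 19.6 kb downstream is called only with the SOX2 constructs.

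**Figure D5:**
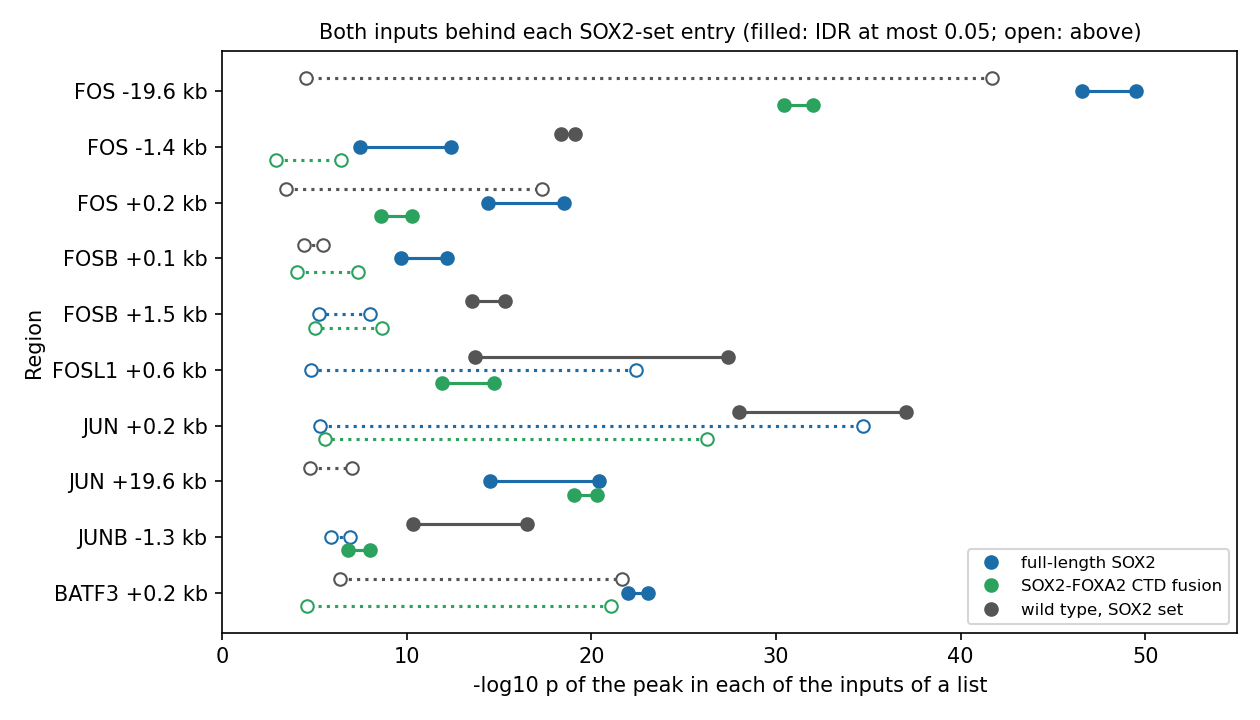
−log10 p of the peak in both inputs of each SOX2-set entry (horizontal axis, joined circles) for promoter regions of AP-1 genes not called in all 3 lists and for distal FOS and JUN regions gained with both constructs (rows, by distance from the start). Filled circles passed an IDR of 0.05 and open circles did not; at JUN +0.2 kb the open pairs span 5.28 to 34.7 with SOX2 and 5.54 to 26.3 with the fusion, while wild type lies at 28.0 and 37.0.

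JUNB, often an antagonist of JUN on growth genes, had the most gains with each FOXA2 construct, in the window with the most regions (26). Its window holds 9 protein-coding genes and had 0 peaks in wild type 1 and 1 in wild type 2, against 17, 14, 10 and 15 in the construct libraries. With full-length FOXA2 7 regions were gained and with the CTD deletion 6. The 7 all lay within the neighbouring genes HOOK2, RNASEH2A and RTBDN, some at their starts, and none was at the JUNB start. At the start, chr19:12791191-12792099 was called in full-length 2 (7.16) and both CTD-deletion libraries (2.92 and 3.63). Full-length 1 instead had a separate peak further into the gene. The region therefore counts as gained with the CTD deletion and not with full-length FOXA2, while the promoter within 1000 bp was gained with both. The forkhead motif shown above lies in the merged region, and of the library peaks that of CTD deletion 1 alone covered it. Just upstream, 1.35 kb before the start and inside the neighbouring HOOK2, chr19:12789790-12790481 was gained with both constructs at 3.59, 6.14, 3.65 and 4.75. Also gained with both were chr19:12765995-12766657 in HOOK2, 25.2 kb before the start (4.42, 5.11, 3.90 and 5.85), and chr19:12832220-12833087 in RTBDN, 41.2 kb after it (3.01, 6.14, 2.84 and 3.43). All of the JUNB gains came against libraries with nearly no peak in the window.

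The SOX2 set showed JUNB differently. Its start (chr19:12791219-12792329) was called in all 3 lists, at percentiles of 30.9, 49.2 and 16.8. The upstream region (chr19:12789839-12790505) was called in wild type at 10.3 and in the fusion at 6.79, and was above the limit with SOX2 at 0.0796. SOX2 gained 6 regions of the 13 in the window, none of them called with the fusion, which had no gain and no loss there. These 6 were weak, at percentiles of 4.77 to 25.4 in the SOX2 list. The highest distal ones were chr19:12757402-12758065 at 8.12 and chr19:12782407-12783035 at 7.74. The wild-type inputs at the first were 11.02 and 5.40 and at the second 4.74 and 6.91, so wild type held an entry at both.

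JUND, the JUN relative expressed most steadily in resting cells, had weak start peaks. Its start region, chr19:18281148-18281917, was gained with full-length FOXA2 (3.10 and 6.14) and called in CTD deletion 2 (3.42), at percentiles of 39.7, 40.8 and 58.2. The CRE shown above lay within the peaks of full-length 2 and CTD deletion 2 and outside that of full-length 1. It was called in all 3 SOX2-set lists, at 37.0, 60.0 and 58.4. A region 41.7 kb before the start, at the start of LSM4 (chr19:18322814-18323818), was called in all 6 lists of the FOXA2 set. Its percentiles were 6.62 and 5.80 in the libraries labelled wild type and 94.5, 79.7, 78.3 and 86.7 in the construct libraries. The ranks from the strongest peak overlapped, at 18521 and 22939 in wild type and 8826, 11097, 17081 and 18871 in the constructs. Both SOX2 constructs gained chr19:18304196-18305565, 23.3 kb before the start (14.7 and 8.63; wild-type inputs 12.3 and 3.70), and chr19:18291427-18292562, 10.4 kb before it (8.60 and 6.22). The fusion lost the region 1.63 kb after the start (chr19:18279448-18280544), which stood at 7.42 in wild type and 8.27 with SOX2.

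ATF3, a stress-induced zipper protein that mostly represses, had no peak within 1000 bp of either listed start in any list. Not every start of ATF3 is listed, so a promoter peak at an unlisted start would be counted as lying within the gene. Within the gene, 2 regions were called in all 9 lists, and whether either lies at an unlisted start was not tested. The first, chr1:212595516-212596902, had fold enrichments of 6.64 and 9.98 (wild type), 5.60 and 17.0 (full-length) and 6.13 and 7.33 (CTD deletion), at percentiles of 85.6 to 98.4. The second, chr1:212608046-212610175, had 5.48 and 6.86, 5.80 and 13.98, and 6.25 and 7.42. Its percentiles were 74.6 and 69.4 in the libraries labelled wild type and 95.9 to 99.3 in the construct libraries. The ranks from the strongest peak were 5040 and 7088 in wild type and 2794, 2257, 2655 and 978 in the constructs, and did not overlap. Their counterparts in the SOX2 set stood at percentiles of 67.6, 80.2 and 80.2 for the first and 97.3, 97.9 and 89.9 for the second, in wild type, SOX2 and the fusion. A region 1.83 kb after the first start, chr1:212566940-212567540, was gained with both FOXA2 constructs, at 6.08, 6.82, 5.04 and 6.84. Its SOX2-set counterpart passed only with SOX2, at 13.3, with inputs of 3.00 and 13.5 in wild type and 4.38 and 14.8 in the fusion. The CTD deletion also gained chr1:212630080-212630678 (3.85 and 4.68), which full-length 1 held as well (4.59). The fusion alone gained chr1:212579518-212580424 at 8.77, where the wild-type inputs were 16.0 and 4.34.

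The windows of ATF3 and BATF3 overlap, and 5 regions of the FOXA2 set and 3 of the SOX2 set fall in both. Between the genes, chr1:212655908-212656475 was gained with both SOX2 constructs, at 15.6 and 16.2 and percentiles of 67.4 and 83.3. The wild-type list held no entry there, whatever its IDR. A second, chr1:212636341-212637282, was lost with both, from 16.8 in wild type to inputs of 7.31 and 12.2 with SOX2 and 4.28 and 3.62 in the fusion.

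BATF3, best known from the development of cross-presenting dendritic cells, had a start peak with every FOXA2 construct library and in neither library labelled wild type. The region, chr1:212699010-212699841, had fold enrichments of 4.07 and 8.18 (full-length) and 4.23 and 4.90 (CTD deletion), at percentiles of 78.0, 71.2, 70.1 and 84.6. In the SOX2 set the start (chr1:212698865-212700319) passed only with SOX2, at 21.96. The wild-type inputs were 6.38 and 21.7 and the fusion inputs 21.1 and 4.58, so in both of these lists 1 input had a peak nearly as strong as with SOX2. A region 28.1 kb before the start, in NSL1 (chr1:212727597-212728326), was gained with both FOXA2 constructs, at 3.87, 6.14, 3.59 and 3.72. SOX2 lost a region inside the gene, chr1:212692801-212693673, which stood at 8.01 in wild type and 7.88 in the fusion.

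The wild-type list of the SOX2 set, made from other samples, held many of the regions gained in the FOXA2 set. In AP-1 windows, 11 of the 22 full-length gains (50.0%) overlapped one of its called peaks, against 20.9% of all regions gained that way. For the CTD deletion the number was 12 of 17 (70.6%), against 26.4%, and for both constructs 7 of 11 (63.6%), against 23.3%. The sets differ in kind: 11 of the 22 full-length gains lay at a listed gene start, against 2157 of 24999 over all regions. Shares for starts alone were not computed. The start regions of FOSL1 and JUND and the upstream regions of FOS and JUNB were among those the wild-type list of the SOX2 set held. Those not called in it included the start regions of BATF3 and FOSB, the ATF3 region 1.83 kb after the first start and the NSL1 region near BATF3. At the BATF3 and FOSB starts and at the ATF3 region it still held an entry above the IDR limit. The 2 wild types are separate lists called in different ways, so this difference cannot be told apart from that of the calling.

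Other genes of the pathway were read at their promoters only. Of 8 further zipper proteins with a listed start (of 11 listed), ATF7 and CREB5 were called in all 9 lists. MAF, a large zipper factor, was gained with both FOXA2 constructs. SOX2 gained JDP2, a repressor that pairs with JUN, and lost MAF and MAFF, and the fusion lost MAFG. Of 10 upstream kinases and factors (of 11), MAPK8, MAPK14, SRF, ELK1 and ELK4, through which growth and stress signals reach FOS and JUN, were called in all 9 lists. Full-length FOXA2 gained MAPK3, MAPK9 and DUSP1 (background 12.4%), and the CTD deletion gained none of the 10 (8.79%). CTD deletion 2 called all 10, MAPK3, MAPK9 and DUSP1 included, while CTD deletion 1 called 6. The difference between the constructs thus rests on CTD deletion 1 alone. SOX2 gained ELK3, and the fusion lost MAPK3, MAPK9 and EGR1. Of 8 known AP-1 targets (of 15), none was called in all 9 lists and MMP10, a stromelysin, was called in all 6 of the FOXA2 set. PLAU, the urokinase gene, was gained with full-length FOXA2. SOX2 lost MMP10, SPP1 and CXCL8, and the fusion lost CXCL8. Called in all 9 lists were thus 2 of 8, 5 of 10 and 0 of 8 promoters, against 23.3% of all genes. The other promoter backgrounds given above hold here too, and none of these counts was tested against them.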

How the data were processed

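ATAC-seq peak lists of 12 U2OS samples were used. The submitters' processing notes name FastQC 0.10.1, Trim Galore, Bowtie2 2.4.4, SAMtools 0.1.18, MACS2, deepTools 2.4.1 and build hg38, without roles or settings. The authors deposited, per peak of the FOXA2 set, fold enrichment (a ratio over background) and −log10 p. The deposited score columns of the SOX2 set hold −log10 of the IDR. The SOX2 set's deposited IDR lists give the −log10 p of both inputs, and the lower was used. Peaks on the autosomes and X were used, and SOX2-set entries with a global IDR above 0.05 were set aside as not called. The peaks of a set were merged, and a region was called in a list by an overlap of at least 1 bp. Names and coordinates came from RefSeq tables of GRCh38.p14. Python 3.11.15 with pandas 2.3.3 was used, and the calls were tested on simulated lists. Named by rule were all 9 members and, per window and comparison, the 2 non-promoter regions with the highest lowest percentile. Other regions were described outside this rule, so their contrasts between wild type and constructs are not a rule-based selection. Among them, in the FOXA2 set, are both distal FOS elements, the LSM4 start and both ATF3 regions shared by all lists. These were neither gained nor lost there. Alternatives were equal list lengths, a common threshold, other IDR limits, 50% coverage, batches and leaving out each library. Members, lists and tests were chosen with earlier results of these data known. Distal sequences were not used here.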

Additional observations from a re-analysis of the deposited data

How the results depend on the processing

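Of 86 recomputed counts at the AP-1 loci, 35 stayed within 1.5 times the main count and 51 did not (37 of 54 in the FOXA2 set, 13 of 30 in the SOX2 set). No paired analysis was possible because presence calls in 2 libraries a group give no fit to which a pairing term could be added. A gained call already requires a gain in both same-numbered pairs of libraries, and the batch values below give the full-length pairs one by one. With equal numbers of peaks the counts were 0 gained and 2 lost with full-length FOXA2, 1 gained and 3 lost with the CTD deletion, 0 full-length-only and 0 CTD-deletion-only. At a common −log10 p they were 9 gained and 1 lost with full-length FOXA2, 5 gained and 2 lost with the CTD deletion, and 0 CTD-deletion-only. With 50% of a region covered, full-length-only regions numbered 5 and CTD-deletion-only regions 4. In the batch without mitochondrial peaks 50 were gained and 1 lost with full-length FOXA2. In the other batch 60 were gained and 1 lost with full-length FOXA2, 1 lost with the CTD deletion, 29 full-length-only and 4 CTD-deletion-only. Leaving out each library in turn gave 28 to 54 gained and 0 to 1 lost with full-length FOXA2, 22 to 59 gained and 0 to 2 lost with the CTD deletion, 3 to 29 full-length-only and 2 to 31 CTD-deletion-only. The gained calls need both libraries of a group, so they grow when one is left out. In the SOX2 set, an IDR of at most 0.01 gave 11 lost with the fusion and 7 SOX2-only. With all entries whatever their IDR, 22 were gained with the fusion and 12 were fusion-only. Where no entry at any IDR was allowed, SOX2 had 3 gained and 4 lost, the fusion 3 gained and 4 lost, and 0 were SOX2-only or fusion-only. Equal numbers of entries gave 10 gained and 24 lost with SOX2 and 4 SOX2-only. With 500 bp around a start, 1 AP-1 gene had a promoter called in all lists, and with 2000 bp 2 had. Depth is unknown, so the absence of a peak is not a measure of closed chromatin.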
